A study of Mus musculus with 4 samples.

Results

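Stefins A are small cytosolic inhibitors of papain-like cysteine proteases, the family to which most cathepsins belong. They bind reversibly in the active site of the protease and are thought to hold cathepsins that leak from lysosomes and granules in check. Rodents carry a tandem cluster of closely related stefin A genes, and in mice these genes are known for their expression in bone marrow neutrophils and their precursors. The genes asked for were Stfa1, Stfa2, Stfa3, Stfa2l1, BC100530 and Gm5483, 6 symbols of the mouse stefin A cluster. Of these, 4 were listed under the same symbol and Gm5483 was listed as Cstdc4, for which RefSeq gives Gm5483 as a synonym. BC100530 matched no symbol or synonym and is not analysed here, so the members described are 5 of 32285 genes. The cluster was chosen by the UMI counts of Stfa1, which were lower with isoproterenol in neutrophil-like cells of wild type (WT) cultures, so that comparison is given below as a description.

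Myeloid-derived suppressor cells (MDSCs) were grown from bone marrow of young adult C57BL/6 WT mice, or of mice labelled B2AR KO, for 4 days with IL-6 and GM-CSF at 40 ng/mL each. Of the cultures, 1 of each genotype received 10 µM isoproterenol (ISO), an agonist of all β-adrenergic receptors, from the start of culture. Cells were marked with multiplexing tags, and the live CD11b+ cells were then sorted, pooled and profiled by single-cell RNA-seq. There were 4 libraries, 1 per group: WT, WT+ISO, B2AR KO and B2AR KO+ISO. The titles and the study's methods give ISO to the libraries named for it, whereas the treatment field of the labels gives isoproterenol for all 4, and the titles were followed. With 1 library per group no value below has a replicate check and no test was made. Each 95% interval covers counting error only and takes UMIs (unique molecular identifiers, 1 per captured transcript) as independent. That does not hold where UMIs share cells, and in neutrophil-like cells most UMIs of these genes sat in few cells.

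After filtering, 9303 cells remained, 2039 to 2790 per library, with 19357824 to 29400468 UMIs per library and medians of 7484 to 10252 UMIs per cell. No barcode was shared between libraries. Each library had its own main tag, which was the highest in all its cells apart from 8 of B2AR KO+ISO. The tagged cells were pooled, so a cell's group appears to rest on its tag. The absence of shared barcodes is then no check of the groups. The clusters, found without the stefins, cystatins and cathepsins, were called mature neutrophil-like (2142 cells), specific-granule neutrophil-like (972), azurophil-granule neutrophil progenitor-like (1508), macrophage-like (1766) and dendritic-like (103), and those led by Gpnmb (1722) and by Matn2 (1090) stayed unnamed. The Gpnmb-led cluster scored highest for the mature neutrophil class, with 8 of 9 markers found and a mean log2 ratio of 1.63. It stayed unnamed since 0 of these markers were among its 10 leading genes. For the Matn2-led cluster the highest-scoring class, eosinophil, had 0 of 5 markers found. The cluster names depend on the clustering resolution. At a resolution of 0.8 in place of 0.4, 330 cells led by C1q genes were called macrophage-like. A cluster of 1461 led by Pid1 stayed unnamed, 721 were called azurophil-granule progenitor-like, and 964 led by Ncam1 and Camp joined the specific-granule class. Also at 0.8, 1724 cells led by Acta2 and Csf1 were called mature neutrophil-like, and 339 led by Gpnmb stayed unnamed. The dendritic-like cluster had 37 and 35 cells in WT and B2AR KO but 16 and 15 in WT+ISO and B2AR KO+ISO, under the minimum of 20 set for comparisons, so levels are ordered over the other 6 clusters. The 3 neutrophil-like clusters together are called neutrophil-like cells and held 997, 1385, 1233 and 1007 cells in WT, WT+ISO, B2AR KO and B2AR KO+ISO, of which the progenitor-like cluster took 354, 574, 327 and 253. The B2AR KO+ISO library stood apart in its tags. In it, 369 cells (18.1%) carried a second tag at 20% or more of the first, against 3 to 48 cells in each other library, and values without such cells are given where they differ. CPM stands for UMIs of a gene per 1000000 UMIs of the cells named.

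The members lie together on chromosome 16. The stefin genes listed in the files span 335.4 kb there in the GRCm38.p6 build, from 36119946 to 36455392. Stfa2l1 (ENSMUSG00000059657, 36156811 to 36161948), Cstdc4 (ENSMUSG00000079597, 36184212 to 36188111) and Stfa1 (ENSMUSG00000071562, 36277148 to 36285371) are on the plus strand. Stfa2 (ENSMUSG00000022902, 36403946 to 36408363) and Stfa3 (ENSMUSG00000054905, 36450537 to 36455392) are on the minus strand. Between and beside them lie the other stefin genes Csta1, Csta2, Csta3, Cstdc5 and Cstdc6.

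The 5 promoters resemble each other closely, which is why they are shown here, since the members are treated together below. The 100 bases before each RefSeq start site (GRCm38.p6, 5′ to 3′ on the strand of the gene) are given, with the longest run that all 5 share in capitals.
Stfa1, plus strand, chr16:36277048-36277147: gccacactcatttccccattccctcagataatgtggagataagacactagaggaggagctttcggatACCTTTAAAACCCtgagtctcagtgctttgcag
Stfa2, minus strand, chr16:36408364-36408463: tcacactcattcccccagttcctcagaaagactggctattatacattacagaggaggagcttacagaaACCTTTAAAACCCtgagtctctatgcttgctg
Stfa3, minus strand, chr16:36455393-36455492: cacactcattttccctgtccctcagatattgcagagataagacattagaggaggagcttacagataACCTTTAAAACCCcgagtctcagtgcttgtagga
Stfa2l1, plus strand, chr16:36156711-36156810: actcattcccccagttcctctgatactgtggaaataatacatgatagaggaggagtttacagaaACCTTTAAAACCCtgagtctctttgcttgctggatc
Cstdc4, plus strand, chr16:36184112-36184211: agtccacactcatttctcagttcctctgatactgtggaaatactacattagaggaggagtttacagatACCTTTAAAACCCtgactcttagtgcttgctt

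The shared run of 13 bases, ACCTTTAAAACCC, began 32 to 36 bases before the start site in each. It was found in 8 of 32851 RefSeq promoter windows (0.0244%), searched on both strands over the 250 bases before the start site. All 8 belong to this locus: the 5 members, Csta3, Cstdc3 and Gm7260. Over the 250 bases before the start site, identity between pairs of members ran from 68.8% (Stfa3 and Cstdc4) to 89.4% (Stfa2 and Stfa2l1). Of the motifs searched on both strands, the TATA box TATAAA was in 0 of 5 member windows (12.4% of all windows). Only these exact letters were searched. The shared run holds TTTAAA, which differs from them in 1 base, so the promoters are not shown to lack such a box. The cAMP response element TGACGTCA was in 0 of 5 (1.55% of all) and its core TGACG in 0 of 5 (17.8%), the latter also being part of the former. The GAS element TTCNNNGAA, the letters that STAT dimers read, was in 1 of 5 (7.02% of all), at position -128 of Cstdc4. These matches describe letters only.

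Transcripts of the members also overlap in sequence, which bears on counts that give a read to 1 gene. In GENCODE vM39 transcripts, 14.7% of the distinct 50-base runs of Stfa1 occur in another stefin gene, mostly Cstdc5. The share was 10.9% for Stfa2 and 15.5% for Stfa2l1, each with the other, 7.62% for Cstdc4 with Csta2, and 0% for Stfa3. Values of single members may therefore be uncertain, by an amount that these shares do not give. Summing the members settles the overlap of Stfa2 with Stfa2l1 only for reads that were counted to either gene. Reads left out of both would be missing from the sum too, and their treatment is not given. It does not settle that of Stfa1 with Cstdc5 or of Cstdc4 with Csta2, since Cstdc5 and Csta2 are outside the sum.

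The members differed in the cells that held them. Cstdc4 and Stfa2l1 were highest in macrophage-like cells, Stfa2 and Stfa3 in specific-granule neutrophil-like cells, and Stfa1 in the cluster led by Matn2 and the azurophil-granule progenitor-like cluster. Cstdc4 had a median of 4012 CPM over the 4 libraries in macrophage-like cells (3748 to 5461), above every library of the next cluster, the one led by Matn2 (1803 to 2737). Of the 6 clusters, its median was lowest in mature neutrophil-like cells, at 855 CPM (582 to 1343), although that range overlapped with those of the Gpnmb-led, progenitor-like and specific-granule clusters. Stfa2l1 had 689 CPM in macrophage-like cells (589 to 881), which overlapped with the Matn2-led cluster (342 to 663) and the specific-granule cluster (326 to 733).

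Stfa2 had a median of 890 CPM in specific-granule neutrophil-like cells (496 to 1188) and 480 in mature neutrophil-like cells (244 to 582), ranges that overlap. Stfa3 followed the same order, with 464 CPM (304 to 646) and 281 CPM (146 to 343). Of the 6 clusters, both had their lowest medians in the Gpnmb-led one, where Stfa2 had 31.6 to 116 CPM and Stfa3 14.9 to 60.6. Stfa1 had a median of 618 CPM in the Matn2-led cluster (387 to 764) and 487 in progenitor-like cells (292 to 808), which overlap, and 56.8 CPM in mature neutrophil-like cells (39.8 to 126). In the Gpnmb-led cluster it had 16.9 to 21.9 CPM, below each library of the other 5. In the few dendritic-like cells the members had 0 to 3 UMIs each in the libraries with ISO, apart from Cstdc4 with 51 in WT+ISO (185 CPM) and 23 in B2AR KO+ISO (134 CPM). Without ISO, Cstdc4 was there at 1082 CPM in WT and 692 CPM in B2AR KO.

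**Figure D1:**
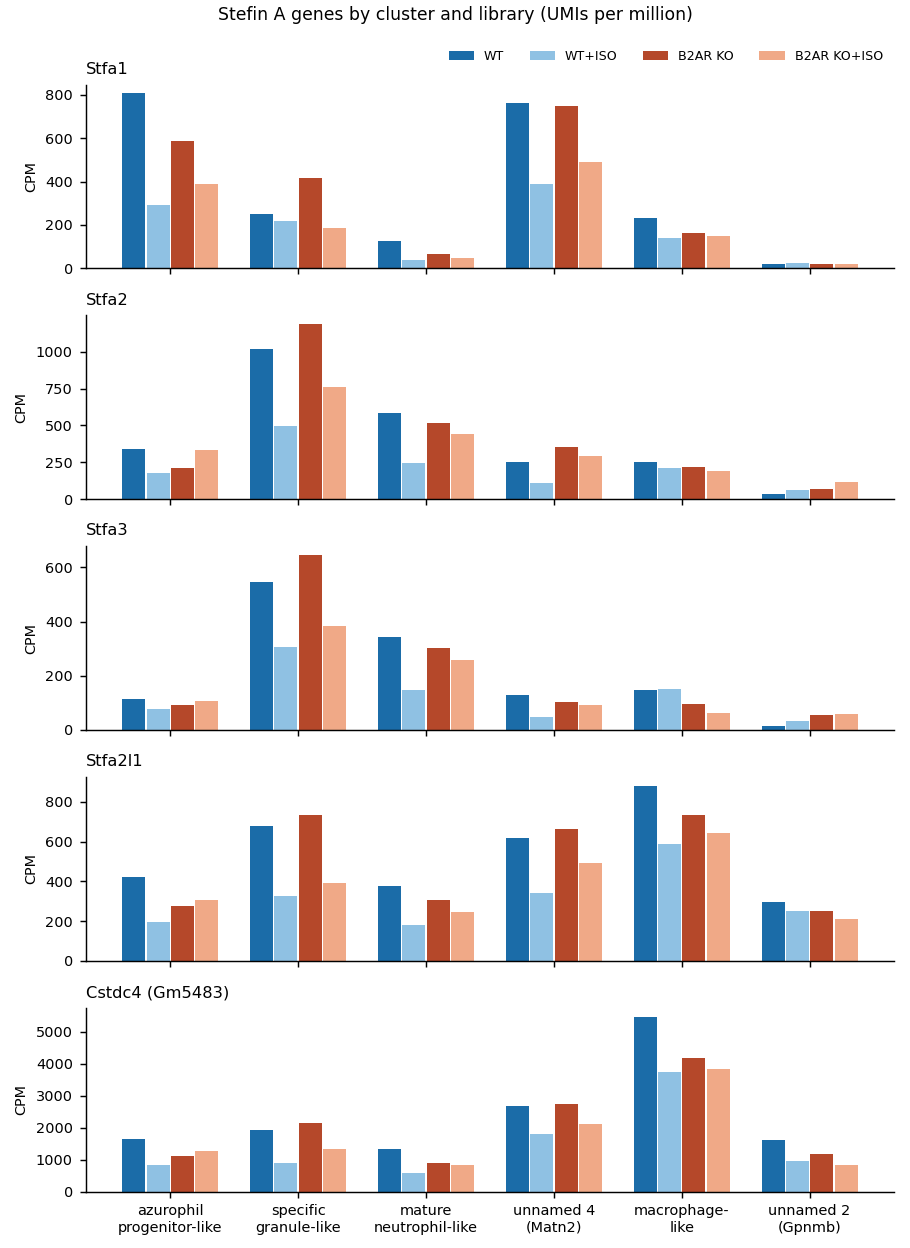
Levels of the 5 members by cluster and library. Each panel is a gene, each group of bars a cluster and each bar a library, with the level in CPM (UMIs per 1000000 UMIs of those cells) on the vertical axis from 0. Cstdc4 stands highest in macrophage-like cells in all 4 libraries, while Stfa2 and Stfa3 stand highest in specific-granule neutrophil-like cells and Stfa1 is at 16.9 to 21.9 CPM in the Gpnmb-led cluster.

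Across 26 points of cluster and library with at least 20 cells, on a log2(CPM + 10) scale, Pearson's r was 0.95 between Stfa2 and Stfa3 and -0.01 between Stfa3 and Cstdc4. The points share libraries and clusters, so these values describe the pattern. Of the member UMIs over all cells, Cstdc4 gave 63.6 to 66.0% in the 4 libraries. By the same measure, r with the summed members was 0.96 for Stfa2l1, 0.93 for Cstdc4, 0.62 for Stfa1, 0.42 for Stfa2 and 0.32 for Stfa3. The sum thus follows Stfa2l1 and Cstdc4 more than Stfa2 and Stfa3. The 5 genes that are no member and had the pattern most like that sum were Ear2 (r = 0.885), Sash1 (0.805), Scd2 (0.783), Ehbp1 (0.774) and Csta3 (0.750), among 9238 genes. Of these, Csta3 is a stefin of the same locus, Ear2 encodes a ribonuclease of the eosinophil-associated family and Scd2 a fatty acid desaturase. In WT neutrophil-like cells their log2 ratios with ISO were -1.03 for Csta3, -0.90 for Sash1, -0.26 for Ear2, -0.26 for Ehbp1 and -0.15 for Scd2. Those of Csta3, Sash1 and Ear2 rest on only 53 to 85 UMIs per library, and the interval of Ear2 spanned 0 (-0.75 to 0.23).

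All 5 members were lower with ISO in WT neutrophil-like cells, the comparison in which Stfa1 had been picked. Stfa1 was at 584 CPM without and 230 CPM with ISO, a log2 ratio of -1.34 (95% interval -1.40 to -1.28). Stfa2 was at 492 and 229 CPM (-1.10, -1.17 to -1.04), and Stfa3 at 226 and 119 CPM (-0.92, -1.01 to -0.84). The other members gave ratios between these. Stfa2l1 was at 452 and 207 CPM (-1.12, -1.19 to -1.06) and Cstdc4 at 1628 and 782 CPM (-1.06, -1.09 to -1.02). Summed, the members went from 3382 to 1568 CPM (-1.11, -1.13 to -1.09).

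Among 9215 genes with at least 100 UMIs in WT neutrophil-like cells, 19 were at least 2-fold lower with ISO (0.206%), and 4 of these were members, Stfa1 among them. Nothing is read from that count, since the cluster was proposed from this comparison. The median log2 ratio was -1.10 over the 5 members and 0.02 over all genes. The 19 also held Cstdc5, Csta2, Csta3 and Cstdc6, the other stefins of the locus that reached 100 UMIs, at log2 ratios of -1.22, -1.06, -1.03 and -1.07. Csta1 had 0 UMIs in the series. With at least 500 UMIs required, 7 genes were 2-fold lower: 4 members, 2 other stefins and Il1b, the gene of interleukin 1β (-1.11), the last named after its value was seen.

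In the libraries labelled B2AR KO the members were lower with ISO by a smaller ratio, and Stfa1 by a larger one than the rest. In neutrophil-like cells Stfa2 was at 474 CPM without and 449 CPM with ISO (-0.08, -0.14 to -0.02) and Cstdc4 at 1225 and 1131 CPM (-0.12, -0.15 to -0.08). Stfa3 was at 253 and 208 CPM (-0.28, -0.37 to -0.19) and Stfa2l1 at 366 and 302 CPM (-0.28, -0.35 to -0.20). Stfa1 was at 402 and 238 CPM (-0.76, -0.84 to -0.68). The sum was 2719 and 2329 CPM (-0.22, -0.25 to -0.20).

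Of 8427 genes in the B2AR KO neutrophil-like cells, 7 were at least 2-fold lower with ISO (0.0831%) and 0 of these were members. The median log2 ratio was -0.28 over the members and -0.02 over all genes. The ratio in WT minus that in B2AR KO was -0.88 for the sum (-0.92 to -0.85), and for single members it lay between -1.02 (Stfa2) and -0.59 (Stfa1, -0.68 to -0.49).

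Stfa1 was the member whose difference between the genotypes was no longer seen without the cells with a second tag. Without those cells its log2 ratio was -1.32 in WT and -1.41 in B2AR KO, so that it was lower with ISO by about as much in both. The other members still differed. Stfa2 had -1.11 in WT and 0.13 in B2AR KO, Stfa3 -0.93 and -0.17, Stfa2l1 -1.11 and -0.225, and Cstdc4 -1.06 and -0.16. The sum had -1.11 and -0.24. For Stfa2 in B2AR KO the sign of the ratio also depended on how the clusters were made. Leaving out second-tag cells also changed the cell mix of B2AR KO+ISO. There they were 40.7% of progenitor-like cells with at least 5 member UMIs at equal depth and 47.4% of the rest. In mature neutrophil-like cells they were 9.3% and 7.19%. Stfa1 had medians over the 4 libraries of 487 CPM in progenitor-like and 56.8 CPM in mature neutrophil-like cells. The part of this shift in the Stfa1 ratio was not tested.

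**Figure D2:**
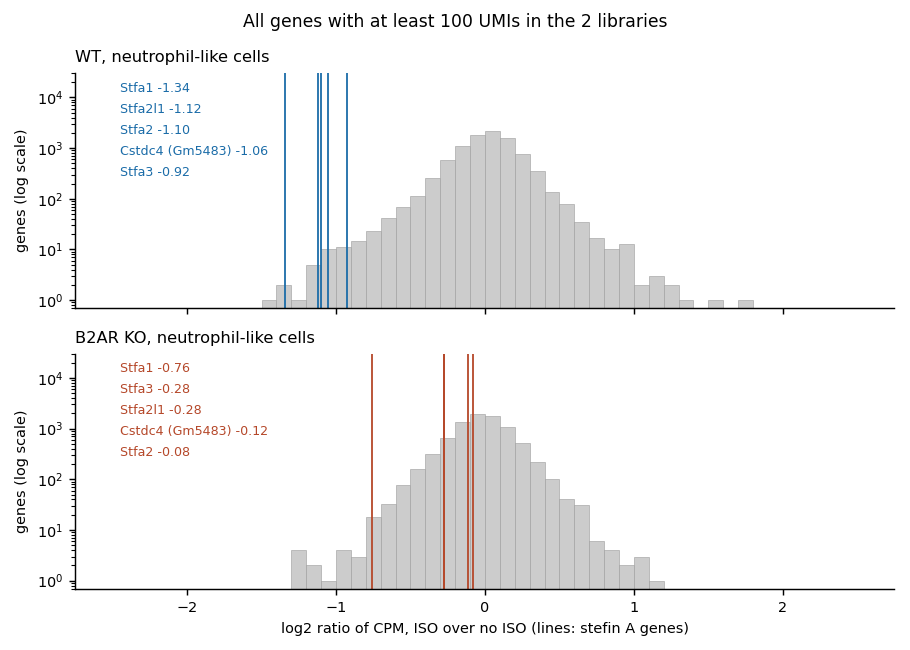
Log2 ratios, ISO over no ISO, of all genes with at least 100 UMIs in neutrophil-like cells, with WT and B2AR KO in separate panels. The horizontal axis is the log2 ratio, the vertical axis the number of genes, and the marked lines are the 5 members. In WT the members lie between -1.34 and -0.92, and in B2AR KO between -0.76 and -0.08.

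The levels of the 2 genotypes were not equal at the start. Without ISO, the summed members were lower in the B2AR KO than in the WT neutrophil-like cells, at 2719 against 3382 CPM (log2 ratio -0.31, -0.34 to -0.29). With ISO they were higher, at 2329 against 1568 CPM (0.57, 0.54 to 0.60). Stfa1 was at 230 CPM in WT+ISO and 238 CPM in B2AR KO+ISO, and the interval of that ratio spanned 0 (0.05, -0.03 to 0.13). Leaving out the cells with a second tag also shifts the cell mix, as given above. Without them Stfa1 was lower in B2AR KO+ISO, at 152 CPM against 231 CPM in WT+ISO (-0.61, -0.72 to -0.50). Stfa2 in contrast was at 229 and 449 CPM (0.97, 0.90 to 1.04), and at 234 and 520 CPM without those cells (1.15).

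Over all cells, the members were also lower with ISO in WT, from 4331 to 2266 CPM summed (-0.94, -0.95 to -0.92), and in B2AR KO, from 3951 to 3285 CPM (-0.27, -0.28 to -0.25). By this measure 0 of 5 members were 2-fold lower in WT, where 1.88% of all genes were, and 0 of 5 in B2AR KO, where 0.102% were. The shares of the clusters differ between libraries. Neutrophil-like cells made up 45.1% of WT, 61.2% of WT+ISO, 44.2% of B2AR KO and 49.4% of B2AR KO+ISO, so values within clusters come next.

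In mature neutrophil-like cells, 5 of 5 members were at least 2-fold lower with ISO in WT (0.595% of 4704 genes were) and 0 of 5 in B2AR KO (0.0428% of 4669). The sum went from 2769 to 1194 CPM in WT (-1.21, -1.27 to -1.15) and from 2088 to 1808 CPM in B2AR KO (-0.21, -0.26 to -0.15). That contrast rested on few cells. Without the 10 cells of each library with most member UMIs, the log2 ratio of the sum was -1.04 in WT and -0.93 in B2AR KO. With equal weight per cell it was -1.14 and -0.37.

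Of the 6 clusters, the azurophil-granule progenitor-like cells showed the widest gap between genotypes. Summed, the members went from 3332 to 1562 CPM in WT (-1.09, -1.12 to -1.06) and from 2259 to 2393 CPM in B2AR KO (0.08, 0.04 to 0.12). Stfa2 was at 340 and 176 CPM in WT and at 208 and 331 CPM in B2AR KO, log2 ratios of -0.95 and 0.67. Stfa1 was lower with ISO in both, from 808 to 292 CPM in WT (-1.47) and from 586 to 388 CPM in B2AR KO (-0.60). Without the 10 cells with most member UMIs the sum gave -1.11 in WT and 0.01 in B2AR KO. Markers of the same lineage differed here too. The 7 listed genes of the azurophil-granule list (Mpo, Elane and other genes of neutrophil precursors) had 13363 and 12502 CPM in WT without and with ISO. In B2AR KO they had 13725 and 9459 CPM, with 0 of 7 at 0. Of the 7, the interval lay below 0 for 4 and above 0 for 2 in WT, and for 6 and 1 in B2AR KO. The 9 genes of the specific-granule list had 34095 and 35555 CPM in WT and 36245 and 43349 CPM in B2AR KO, with 0 of 9 at 0, and in B2AR KO 8 of the 9 had an interval above 0 (median log2 ratio 0.49). The part of either list in the result was not tested.

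In specific-granule neutrophil-like cells the sum was lower with ISO in both genotypes, from 4410 to 2246 CPM in WT (-0.97, -1.03 to -0.92) and from 5137 to 3067 CPM in B2AR KO (-0.74, -0.80 to -0.69). Stfa1 went the other way from the rest in the size of its ratios. It was at 249 and 217 CPM in WT (-0.20, -0.40 to 0.00) and at 416 and 187 CPM in B2AR KO (-1.15, -1.36 to -0.95). These Stfa1 values rest on few cells. The 10 cells with most Stfa1 held 84.7% of its UMIs in WT, 91.5% in WT+ISO, 78.9% in B2AR KO and 92.9% in B2AR KO+ISO. In B2AR KO+ISO, second-tag cells were 36.8% of the cells of this cluster with at least 5 member UMIs at equal depth and 28.5% of the rest.

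Macrophage-like cells, where Cstdc4 is highest, showed smaller ratios. Cstdc4 was at 5461 and 3748 CPM in WT (-0.54, -0.57 to -0.52) and at 4185 and 3839 CPM in B2AR KO (-0.12, -0.15 to -0.10). Stfa2l1 was at 881 and 589 CPM in WT (-0.58) and 734 and 644 CPM in B2AR KO (-0.19). Here 0 of 5 members were 2-fold lower in WT (0.760% of 7893 genes were) and 0 of 5 in B2AR KO (0.100% of 8992). Stfa3 was the exception in direction, at 148 and 150 CPM in WT (0.02, -0.14 to 0.17) and 97.4 and 63.6 CPM in B2AR KO (-0.61, -0.79 to -0.44), and in WT it was at -0.50 without the 10 cells with most member UMIs. The macrophage markers of these cells were also lower with ISO as a sum. The 9 genes summed to 470 and 235 CPM in WT and to 741 and 595 CPM in B2AR KO, and the 10 dendritic cell markers to 2090 and 925 CPM in WT and to 2313 and 2115 CPM in B2AR KO, with none of either list at 0. Of the macrophage markers with at least 100 UMIs, 3 of 4 in WT had an interval below 0. In B2AR KO 5 of 7 did and 1 had an interval above 0. Of the dendritic cell markers, 5 of 5 and 5 of 6 had an interval below 0. Their part in the lower stefin levels was not tested.

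The unnamed clusters differed from each other. In the Matn2-led cluster the sum was lower with ISO in both genotypes, from 4430 to 2691 CPM in WT (-0.72, -0.75 to -0.69) and from 4603 to 3477 CPM in B2AR KO (-0.40, -0.44 to -0.37). In the Gpnmb-led cluster Cstdc4 was lower with ISO (-0.77 in WT and -0.51 in B2AR KO), whereas Stfa2 was higher, from 31.6 to 61.4 CPM in WT (0.96, 0.49 to 1.44) and from 67.2 to 116 CPM in B2AR KO (0.78, 0.44 to 1.13). Those Stfa2 values rest on 68 to 147 UMIs per library, of which a single cell held 27 of 68 in WT, 48 of 87 in WT+ISO, 94 of 135 in B2AR KO and 39 of 147 in B2AR KO+ISO. Without that cell in each library, Stfa2 was at 19.1 and 27.8 CPM in WT (0.54) and at 20.5 and 86.2 CPM in B2AR KO (2.07). Stfa3 was higher with ISO there in WT too, with a log2 ratio of 1.10 on 32 and 45 UMIs. In B2AR KO its ratio was 0.12 on 112 and 77 UMIs, with an interval across 0, and -1.69 without second-tag cells. Over the 6 clusters compared with ISO, the interval lay below 0 for 25 of 30 pairs of member and cluster in WT, above 0 for 2 and across 0 for 3. In B2AR KO the counts were 22, 5 and 3. The share of all genes with such intervals was not computed, and the neutrophil-like clusters are those in which Stfa1 was picked. Nothing is therefore read from these counts.

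**Figure D3:**
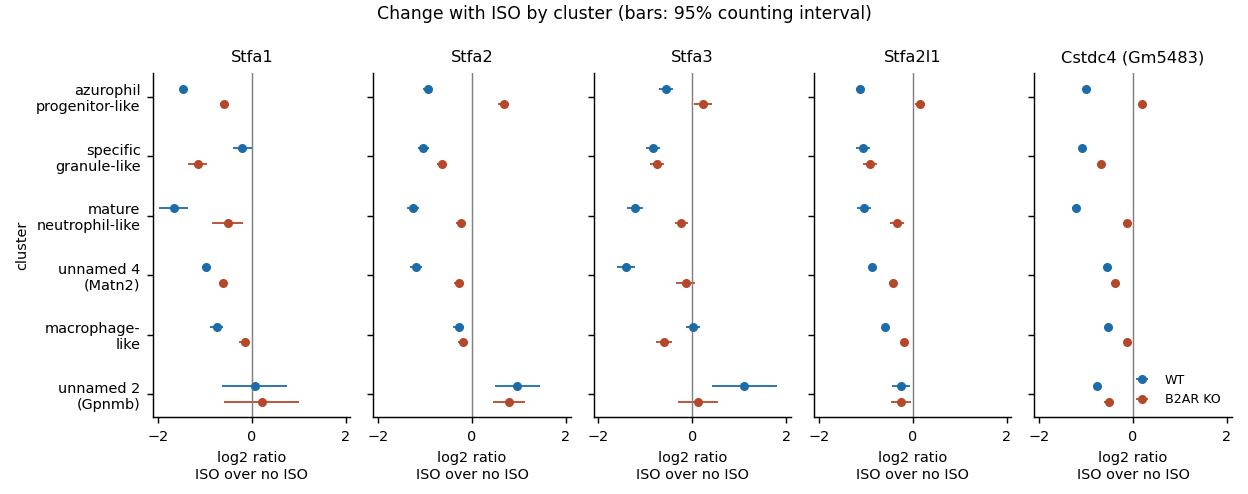
Log2 ratios, ISO over no ISO, of each member in each cluster, with WT and B2AR KO side by side. Points are log2 ratios of CPM, the bars are 95% intervals for counting error and the line at 0 marks no difference. The gap between the genotypes is seen for Stfa2, Stfa3, Stfa2l1 and Cstdc4 in progenitor-like cells, where WT lies between -1.13 and -0.56 and B2AR KO between 0.16 and 0.67.

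In neutrophil-like cells, which held 24.6 to 38.6% of the member UMIs of a library, these UMIs were concentrated in few cells. Of neutrophil-like cells, 20.9% in WT, 14.5% in WT+ISO, 14.3% in B2AR KO and 11.2% in B2AR KO+ISO held a UMI of Stfa1. The 10% of neutrophil-like cells with most of a member held 76.7% (Stfa2l1 in WT) to 99.4% (Stfa1 in B2AR KO+ISO) of its UMIs. Single cells of this set held up to 359 UMIs of Stfa1 and 432 of Cstdc4, while its median cell held 0 or 1. The spread between cells is therefore far wider than the counting intervals. In macrophage-like cells Cstdc4 was spread more widely. The median cell held 52, 19, 14 and 18.5 of its UMIs in WT, WT+ISO, B2AR KO and B2AR KO+ISO. There the 10% of cells with most Cstdc4 held 36.8 to 47.1% of its UMIs. In the Matn2-led cluster the medians were 26, 11, 15 and 12.

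To compare cells at 1 depth, each was thinned to 2000 UMIs, which left out 24 to 63 neutrophil-like cells per library that held fewer. At that depth 12.6% of neutrophil-like cells in WT held a UMI of Stfa1 (95% exact interval 10.5 to 14.8), against 7.20% in WT+ISO (5.88 to 8.71), 9.15% in B2AR KO (7.56 to 10.9) and 6.08% in B2AR KO+ISO (4.66 to 7.78). For Cstdc4 the shares were 33.3%, 24.0%, 27.8% and 24.0% in the same order. No cell type here is known to lack the stefins. Of the 6 clusters, the lowest shares for Stfa1 were in the Gpnmb-led one, with 1.15 to 2.15% of thinned cells, where the median cell held 2372 to 3472 UMIs against 6065 to 8897 in neutrophil-like cells. Cstdc4 was found in 29.3 to 35.6% of thinned cells of that cluster, which is therefore no negative control for it. With no cells known to lack the stefins, low counts in neutrophil-like cells could not be told from free RNA.

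Cells with at least 5 member UMIs among the 2000 held 88.5 to 93.8% of the thinned member UMIs of neutrophil-like cells. They made up 22.8% of these cells in WT (20.2 to 25.6) and 14.5% in WT+ISO (12.6 to 16.5). In B2AR KO they made up 18.4% (16.2 to 20.7) and in B2AR KO+ISO 14.4% (12.3 to 16.8). Their mean was 24.3 member UMIs in WT and 17.3 in WT+ISO, against 23.7 in B2AR KO and 23.8 in B2AR KO+ISO. In WT both the share of such cells and the UMIs in each were thus lower with ISO. In B2AR KO the share was lower by a smaller log2 ratio, -0.35 against -0.66 in WT, and the means were alike. The intervals of the B2AR KO shares overlapped, which does not show the shares to be equal. The cut of 5 is a range and not a cell type, and 44 to 105 cells per library held 3 to 7 member UMIs.

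In macrophage-like cells the share with at least 5 member UMIs was 58.4% in WT (53.2 to 63.5) and 41.7% in WT+ISO (35.2 to 48.5). It was 42.1% in B2AR KO (38.5 to 45.8) and 43.6% in B2AR KO+ISO (38.9 to 48.3), so those intervals overlap. Their mean was 22.4 and 20.1 member UMIs in WT, and 22.8 and 19.9 in B2AR KO. The B2AR KO library without ISO thus lay near WT+ISO in this share.

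**Figure D4:**
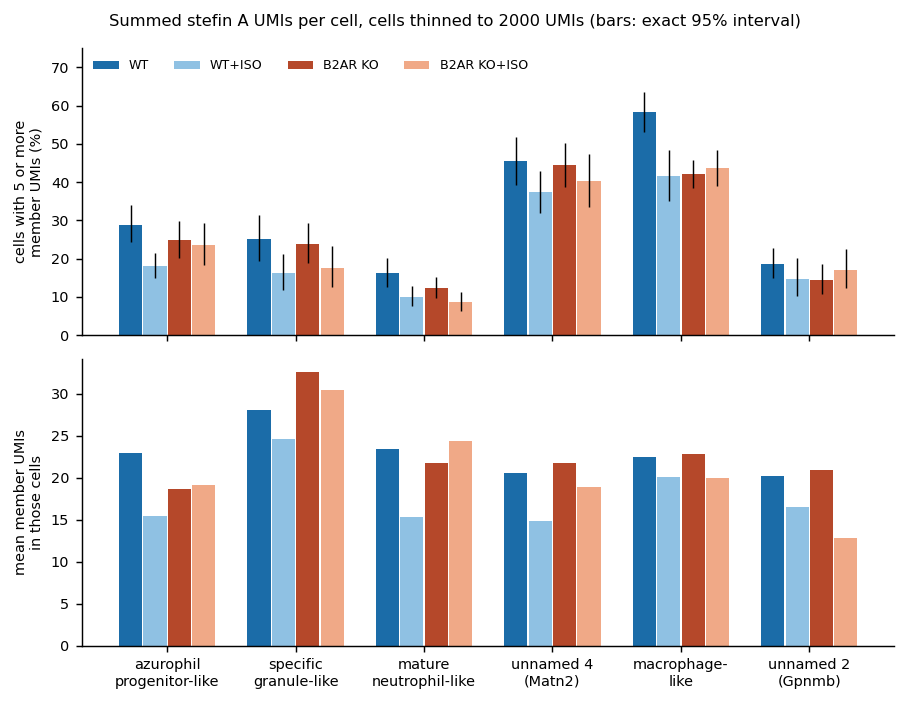
Cells rich in member UMIs after thinning each cell to 2000 UMIs. The upper panel gives the percent of cells with at least 5 member UMIs (bars are 95% exact intervals, counting error only) and the lower panel the mean member UMIs in those cells, by cell set and library. In macrophage-like cells the share is 58.4% in WT and 41.7% in WT+ISO, and the mean 22.4 and 20.1.

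The members tended to share their cells. Of thinned neutrophil-like cells with a Stfa1 UMI, 75.3 to 83.8% in the 4 libraries also held Cstdc4, against 17.7 to 27.0% of those without Stfa1. Of those with a Stfa3 UMI, 71.9 to 89.0% held Stfa2, against 6.32 to 10.2% of those without. Among neutrophil-like cells with at least 5 member UMIs, 82.7 to 93.6% held 2 or more members. These cells were also deeper before thinning, with medians of 10571 against 6735 UMIs in WT, and in B2AR KO+ISO 42 of 140 carried a second tag against 175 of the other 830. Within progenitor-like cells, those with at least 5 member UMIs were shallower in WT (16185 against 17765 UMIs) and B2AR KO (13830 against 15699). They were deeper there in WT+ISO (18391 against 17101) and B2AR KO+ISO (13630 against 12977). The part of depth or of second tags in this overlap was not tested. In WT progenitor-like cells, those with at least 5 member UMIs had 6458 CPM of the azurophil-granule list and the others 15830 CPM, and 42791 against 30985 CPM of the specific-granule list.

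The other inhibitors and the proteases that stefins bind were listed to set beside the members. Of 15 other cystatin family genes and related inhibitors, 3 reached 100 UMIs in neutrophil-like cells and 0 were 2-fold lower or higher. Cstb, which encodes stefin B, the single-copy relative of the cluster, had a log2 ratio of -0.15 in WT and -0.29 in B2AR KO. Cst3, the secreted cystatin C, had 0.05 and -0.09, and Cst7, the endolysosomal cystatin F, 0.02 and -0.54. Of the 14 proteases, 6 reached 100 UMIs and 0 passed 2-fold in either direction, with medians of 0.12 in WT and 0.16 in B2AR KO.

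In macrophage-like cells the relatives of the members did differ. There Cst3 was at 2093 CPM without and 1040 CPM with ISO in WT (-1.01, -1.06 to -0.96), and at 1941 and 1728 CPM in B2AR KO (-0.17, -0.20 to -0.13). Ctsl, the gene of cathepsin L, a protease that stefin A inhibits, was at 218 and 390 CPM in WT (0.84, 0.73 to 0.95) and at 219 and 256 CPM in B2AR KO (0.22, 0.13 to 0.31). Cstb was at 828 and 949 CPM in WT (0.20) and at 793 and 758 CPM in B2AR KO (-0.06). Of the 7 proteases with at least 100 UMIs in WT the interval lay above 0 for 4 and below 0 for 2, and of the 8 in B2AR KO for 2 and 1.

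Among the cell type lists in neutrophil-like cells, the 9 mature neutrophil markers summed to 3602 and 3560 CPM in WT without and with ISO. In B2AR KO they summed to 4293 and 4860 CPM. In the cells outside this set they summed to 4710 and 4418 CPM in WT and to 3915 and 4171 CPM in B2AR KO. The set thus need not hold all neutrophils. In neutrophil-like cells the other lists were as follows. The 9 specific-granule markers summed to 44310 and 47018 CPM and to 48522 and 53499 CPM, and the 7 azurophil-granule genes to 8797 and 8558 CPM and to 7452 and 4825 CPM. In WT these sums thus differed less than that of the members, and in B2AR KO the azurophil-granule sum differed more. The even sum of the mature markers in WT covers genes that went both ways, with an interval below 0 for 7 of 9 and above 0 for 2. They ran from -1.11 for Il1b, the same log2 ratio as the summed members, to 0.92 for Mmp8, a collagenase of neutrophil granules. Markers of other cells were low: macrophage markers summed to 20.6 to 28.3 CPM over the 4 libraries, dendritic cell markers to 29.4 to 55.8 and eosinophil markers to 3.47 to 5.81, and in WT all 3 sums were lower with ISO. The part of cell composition in the members' ratios was not tested beyond the cluster values above.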

How the data were processed

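Single-cell libraries were made on day 4 from live sorted CD11b+ cells. The authors deposited raw UMI counts per gene and cell, without normalization, from Cell Ranger (version 7.0.0 per the file headers, 6.0.0 per the submitters' processing notes, which also name Seurat and mm10), for barcodes kept as cells. How introns and reads matching several stefins were treated is not given in the sources used here. Of 9525 cells, the 9303 with 200 or more genes and no more than 10% of UMIs from mitochondrial genes were scaled to 10000, log-transformed and clustered with scanpy 1.11.5 and leidenalg 0.10.2 (2000 variable genes, 30 components, 15 neighbours, resolution 0.4, seed 0). The 12 multiplexing tags were left out. Clusters were named from marker lists, and no doublet caller was run, so doublets remain possible beyond the cells with a second tag. UMIs were summed per library and cluster, and log2 ratios of CPM have exact conditional binomial 95% intervals (scipy 1.17.1). Shares have exact Clopper-Pearson intervals. Both cover counting error only. Called means at least 2-fold among genes with at least 100 UMIs. The ratios were also run on simulated independent counts. The interval assumes such counts, so that run says nothing of the spread between cells or cultures. Genes named are the members, the stefins of the locus, the cystatins, proteases and markers listed, and the 5 genes most like the summed members. The members and lists were chosen with earlier results of these data known. One check of the genotype labels is not reported here.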

Additional observations from a re-analysis of the deposited data

Results flagged for a closer look

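In azurophil-granule progenitor-like cells 4 members and their sum had log2 ratios, ISO over no ISO, of opposite sign in the genotypes, with intervals on either side of 0. The values in WT and B2AR KO were -0.95 and 0.67 for Stfa2, -0.56 and 0.22 for Stfa3, -1.13 and 0.16 for Stfa2l1, -1.0 and 0.20 for Cstdc4, and -1.09 and 0.08 for the sum. Stfa1 was lower with ISO in both genotypes, as given above. The share of all genes with such opposite signs was not computed, so nothing is read from the count of members. With 1 library per group the difference was not tested. Without the cells with a second tag, which in B2AR KO+ISO were 40.7% of the cells of this cluster with at least 5 member UMIs and 47.4% of the rest, the B2AR KO values were 1.20, 0.34, 0.36, 0.27 and 0.19. Without the 10 cells of each library with most member UMIs they were 0.44, -0.02, -0.08, 0.11 and 0.01, so the sign changed for Stfa3 and Stfa2l1. With each cell thinned to equal depth, the mean sum per cell gave -1.174 in WT and -0.077 in B2AR KO. By that measure the sum had the same sign in both genotypes.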

How the results depend on the processing

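No paired analysis was possible because the groups hold a single library each. Unless a sentence says otherwise the cause of a shift was not tested. The summed members in neutrophil-like cells had a log2 ratio below 0 under all 17 alternatives in each genotype, from -1.27 to -0.935 in WT (-1.11 as reported) and from -0.35 to -0.17 in B2AR KO (-0.22 as reported), and 8 and 14 of these lay outside the counting interval. In WT and B2AR KO, no filter on cells gave -1.27 and -0.27, leaving out the 2% of cells with most UMIs -1.18 and -0.345, resolution 0.8 -1.03 and -0.17, equal weight per cell -1.07 and -0.35, and all cells -0.935 and -0.27. Among sums chosen after seeing the data, leaving out Cstdc4 gave -1.16 and -0.32, and all stefins of the locus -1.14 and -0.19. A stricter filter (1000 genes or more, 5% mitochondrial UMIs or less) gave -1.04 in WT. In B2AR KO, resolution 0.2 gave -0.18, 4000 variable genes -0.19, the members kept in the clustering -0.31, totals without the 20 most abundant genes -0.20, clusters at fixed weights -0.30, leaving out the 10 cells with most member UMIs -0.30, and equal weight per member, also added later, -0.28. Single members in WT neutrophil-like cells were below 0 in 70 of 70 alternatives, and in B2AR KO in 65 of 70. The others were Stfa2 in B2AR KO, at 0.068 with the stricter filter, 0.011 at resolution 0.2, 0.052 at 0.8, 0.016 with 4000 variable genes and 0.13 without second-tag cells. Within clusters, 11 of 218 values had another sign than the reported one, 2 in WT and 9 in B2AR KO, and in 4 of these, all in B2AR KO, the reported interval lay to one side of 0. Of these 4, leaving out the 10 cells richest in members gave 0.068 for Stfa2l1 in the Gpnmb-led cluster, and -0.024 for Stfa3 and -0.078 for Stfa2l1 in progenitor-like cells, and equal weight per cell gave -0.073 for Stfa3 there. The number of genes 2-fold lower or higher depended on the minimum: in WT, 19 and 10 at 100 UMIs became 115 and 115 at 20 UMIs and 7 and 0 at 500, and in B2AR KO 7 and 3 became 101 and 86, and 1 and 0. Thinning lowered all 20 shares of cells with a member UMI, by its construction. Stfa1 in B2AR KO+ISO over WT+ISO went from 0.05 to -0.61 without second-tag cells, a step that also shifts the cell mix. Depth limits single members in the dendritic-like and Gpnmb-led clusters, and the spread between cultures was not measured.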
